A study of Saccharomyces cerevisiae with 4 samples.

Results

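The nuclear genes of the respiratory chain and the mitochondrial ATP synthase were examined in maps of capped RNA 5′ ends from *Saccharomyces cerevisiae*. The set holds 40 genes, located by symbol in the S288c annotation (build R64), of 6002 nuclear protein-coding genes, by a rule that names genes and uses no measured value. It comprises the NADH dehydrogenase genes NDI1, NDE1 and NDE2, the succinate dehydrogenase (complex II) genes SDH1 to SDH4, 9 genes of the cytochrome bc1 complex (complex III), the cytochrome c genes CYC1 and CYC7, 9 genes of cytochrome oxidase (complex IV), 6 genes of or acting on the catalytic F1 part of the ATP synthase and 7 of its stalk and membrane part. BY4741, the wild-type laboratory strain (2 libraries), was compared with *set2*Δ, the same background with SET2 replaced by kanMX4 (2 libraries). All cultures were grown in YPD with 1% glucose at 30 °C to an optical density near 1. BY4741 is a haploid *MATa* strain that carries deletions at HIS3, LEU2, MET17 and URA3, so both strains shared these alleles. The labels number the libraries without saying whether they came from separate cultures, so the p-values measure the spread between libraries, which may be technical. The comparison asked whether loss of Set2 alters where, and how often, RNAs of these genes start.

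Set2 methylates lysine 36 of histone H3 in transcribed genes, and the mark recruits a deacetylase complex that keeps cryptic promoters inside genes silent. The respiratory chain passes electrons from NADH and succinate through quinone, complex III and cytochrome c to oxygen at complex IV, and the ATP synthase uses the resulting proton gradient. Budding yeast lacks the multisubunit complex I and oxidises NADH with single-polypeptide enzymes. Glucose represses most of these genes, and the HAP activator, which recognises the sequence CCAAT in their promoters, raises them when respiration is needed. The subunits that the mitochondrial genome encodes were not analysed here.

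Each count is a capped 5′ end at 1 base. Since an RNA has 1 such end whatever its length, levels were compared between genes without division by length. The libraries held 452888 and 375442 counts for BY4741 and 1267578 and 1099482 for *set2*Δ. Sense counts were summed from 250 bp upstream of the annotated start to base 200 of the gene (5′ window) and from there to the end of the gene (internal window, genes of at least 300 bp). SET2 itself had 24 and 11 counts in the 5′ window in BY4741 against 13 and 11 in *set2*Δ, and 7 and 2 against 0 and 1 in the internal window, lower in both (adjusted p = 7.4e-07 and 1.6e-04). LEU2 and MET17 had no count in either window and URA3 a single one. HIS3, of which a part remains, kept its 5′ window counts (138 to 265) but had at most 1 internal count in any library. The *MATa* gene MFA1 held 271 to 451 counts per library in the 5′ window and the *MATα* gene MF(ALPHA)1 held 2 to 12.

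The position with the most counts was taken as the main start of each gene, searched up to 600 bp upstream. All 40 main starts fell on a purine that follows a pyrimidine, the dinucleotide at which yeast RNA polymerase II commonly initiates, although that of NDE2 rested on a single read. This dinucleotide also set the 42 bp shift of the minus strand, over all genes. The sequences below, from 20 bases before the main start to 9 after it, show the starts of the highest genes of complexes II, III and IV, of NDE1, of the β subunit gene ATP2, and of the genes with the shortest (ATP15) and longest (COX4) leader. Capitals mark the pyrimidine and the first base of the RNA.
SDH4: taaggcaaagatagaaggaTAaatatctgc
QCR6: tactcagtcttaagggcagTAttggttggc
COX9: ttaggaccgagaattagagCAagcaagata
NDE1: gctgttggggctagaactaTAagtgtgtcg
ATP2: taaactttctttatctctcCAggacaggcc
ATP15: taagaaacatcaacagtttCAgcccacaac
COX4: cttcttccaagtataaacaCAggaaagaaa
In order, these lie at chrIV:817828-817857 (plus strand), chrVI:224866-224895 (minus), chrIV:334433-334462 (minus), chrXIII:556669-556698 (minus), chrX:647394-647423 (plus), chrXVI:30038-30067 (plus) and chrVII:150638-150667 (minus) of R64. Leader here is the distance in the genome from start to gene, so an intron within it would be counted. The median distance from main start to gene was 78.5 bp, and 26 of the 40 lay within 100 bp. The extremes were 21 bp for ATP15, the ε subunit of F1, and 476 bp for COX4, subunit IV of cytochrome oxidase. The top position was the same base in all 4 libraries for 14 genes and moved by at most 10 bp for 23. Every 43-base stretch of the 5′ and internal windows occurred once in the genome as an exact match. Alignments with mismatches, and positions more than 250 bp upstream, were not checked.

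Most of the set was well expressed. With the counts of the longer window (600 bp upstream to base 200), the 40 genes made up 1.01% ± 0.05 (SD, n = 2) of all 5′ counts in BY4741 and 1.03% ± 0.03 (n = 2) in *set2*Δ, a difference within the spread (exact two-sided permutation p = 0.67, where 0.33 is the smallest that 2 against 2 allows). COX9, subunit VIIa of cytochrome oxidase, was the highest gene of complex IV, with 240 and 187 counts in BY4741 against 494 and 441 in *set2*Δ. ATP18, subunit i/j of the ATP synthase, followed with 208 and 229 against 398 and 364. QCR6, the acidic hinge subunit of complex III, had 155 and 138 against 554 and 424. ATP16, the δ subunit, was the highest of F1, with 162 and 152 against 439 and 373. At the other end, NDE2 had 2, 2, 1 and 0 counts and was not tested.

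**Figure D1:**
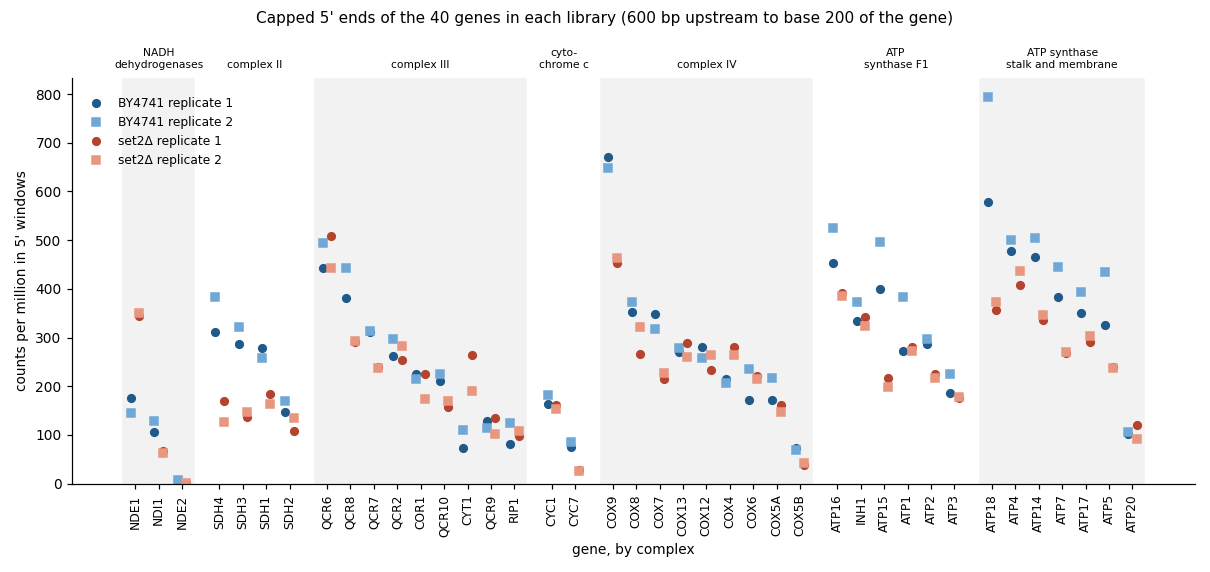
CPM (counts scaled by TMM) in the longer 5′ window for the 40 genes, by complex, with 1 point per library (blue, BY4741; red, *set2*Δ). Of the 39 genes tested in this window, NDE1, CYT1 and COX4 have both *set2*Δ points above both BY4741 points, and 25 have both below, where 43.0% and 36.1% of all genes have.

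Of the 38 genes with at least 10 counts in the 5′ window, 20 were called lower in *set2*Δ, 4 were called higher and 14 did not pass the test (edgeR's quasi-likelihood test, Benjamini-Hochberg adjusted p below 0.1 over 5249 genes). Among all tested genes, 30.2% were called lower and 32.8% higher. The median log2 difference of the 38 genes was -0.32, beside 0.11 for all genes. Both *set2*Δ libraries lay below both BY4741 libraries for 25 of the 38 genes, as for 36.1% of all genes, and above for 4, as for 43.9%.

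Over all genes, lower calls went with level. When all tested genes were divided into 5 equal classes by mean 5′ level, the highest class (293 to 2538 CPM, the counts of a gene scaled to library size with TMM) had 76.9% of its genes called lower and 4.10% higher. It held 15 of the 38 genes, of which 11 were called lower and 0 higher. In the next class 43.0% of all genes were lower, and 6 of the 13 genes of the set. From 86.7 to 162 CPM the set had 4 genes, with 0 called, against 18.7% lower and 40.4% higher of all genes. From 38.8 to 86.6 CPM the set did not follow its class. There 3 of its 4 genes were lower and 1 higher, against 8.67% and 54.4% of all genes. The lowest class held COX6 and ATP1, whose fixed window leaves out their main starts and which reached 10 counts only through *set2*Δ, so their higher calls say nothing of a link with level.

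Counts at single positions moved with this pattern. At the 40 main starts, counts summed to 566 and 533 in BY4741 and to 691 and 679 in *set2*Δ, a ratio of 1.25, although the *set2*Δ libraries were 2.86 times as deep. At all other positions of the longer windows the sums were 3329 and 2972 against 9587 and 8099, a ratio of 2.81. The highest position of a gene had a median of 16 and 15 counts in the BY4741 libraries and 18 in each *set2*Δ library, and between 19 and 33 of the 40 genes peaked at 16 to 25 counts, depending on the library. Offsets that depend on the level (cyclic loess) changed the split to 7 lower and 8 higher, against 23.0% and 23.8% of all genes. Without positions holding 8 or more counts it was 12 lower and 5 higher, against 22.9% and 18.5% of all genes. With each used position counted once it was 5 lower and 3 higher, against 13.7% and 7.94%, which is close to the background. Calls in 1 direction under all 3 settings and with TMM were CYC7, SDH3, SDH4 and ATP15 (lower) and NDE1 (higher).

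**Figure D2:**
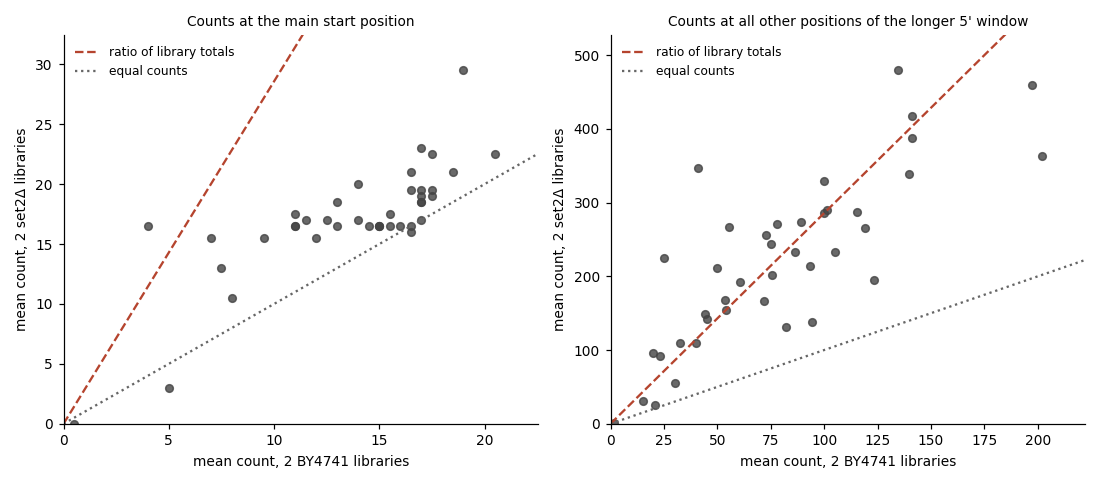
Mean count in the 2 *set2*Δ libraries against that in the 2 BY4741 libraries, 1 point per gene, at the main start (left) and summed over all other positions of the longer window (right). The dashed line is the ratio of library totals (2.86) and the dotted line equal counts: the sums at main starts differ by 1.25 times between the strains and those at the other positions by 2.81 times.

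**Figure D3:**
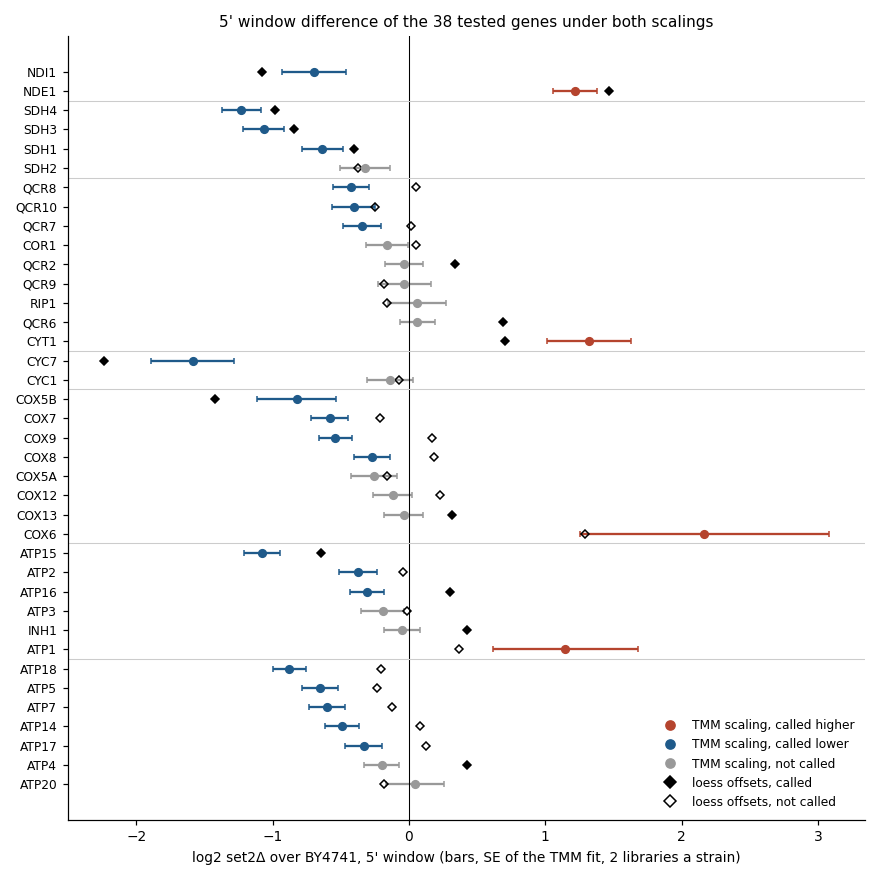
Log2 difference (*set2*Δ over BY4741) in the 5′ window for the 38 tested genes, by complex. Circles with SE bars are the TMM fit (red, called higher; blue, called lower; grey, not called) and diamonds the loess fit (filled where called): 20 genes were lower with TMM and 7 with loess.

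Complex II, which oxidises succinate and is shared with the tricarboxylic acid cycle, had 3 of its 4 genes called lower. Of all genes 30.2% were lower, and 43.0% in the level class of these 3 (162 to 293 CPM). The other gene, SDH2 (iron-sulfur subunit), had a log2 difference of -0.32 (adjusted p = 0.12). The membrane anchor genes fell most. SDH4 had 108 and 110 counts in BY4741 against 185 and 112 in *set2*Δ, or 363 ± 58.3 against 152 ± 39.5 CPM (SD, n = 2), a log2 difference of -1.23 ± 0.14 (SE, adjusted p = 1.98e-16). SDH3 had 100 and 93 against 153 and 141, a log2 difference of -1.07 ± 0.15 (adjusted p = 7.58e-12). The groups did not overlap for either gene, and both were called lower in each of 20 other settings of normalization, filter, window and left-out library. SDH1, the flavoprotein subunit, had a log2 difference of -0.64 ± 0.15 and was called in 18 of the 20. In the longer window SDH2 passed as well (log2 -0.38, adjusted p = 0.070).

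Of the NADH dehydrogenase genes, NDE1 was called higher and NDI1 lower. NDE1, the enzyme that oxidises cytosolic NADH at the outer face of the inner membrane, had 54 and 38 counts in BY4741 against 363 and 321 in *set2*Δ. That is 150 ± 15.1 against 353 ± 1.41 CPM, 2.33 times as many (log2 1.22 ± 0.16, adjusted p = 6.35e-13), and NDE1 was the only member called higher in all 20 other settings. NDI1, the matrix-facing enzyme, had 35 and 30 against 73 and 55, a log2 difference of -0.69 ± 0.24 (adjusted p = 0.0073). NDE2, the paralog of NDE1, was too low to test. At the main start of NDE1, 203 bp upstream, there were 14 and 9 counts in BY4741 against 18 and 16 in *set2*Δ. Relative to depth this was a decrease, so the higher count of NDE1 came from other positions. From 201 to 250 bp upstream there were 30 and 19 counts in BY4741 against 105 and 103 in *set2*Δ, whereas from 51 to 100 bp there were 3 and 6 against 66 and 59. The mean leader of NDE1, weighted by counts, fell from 159 and 148 bp to 138 and 139 bp. That mean includes the main start, whose counts rose less than depth.

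Of the cytochrome c genes, CYC7 was called lower and CYC1 was not called. CYC1 encodes the main, aerobic isoform and CYC7 the minor one, which is favoured when oxygen is low. CYC7 had 27 and 25 counts in BY4741 against 30 and 25 in the deeper *set2*Δ libraries, or 86.2 ± 8.07 against 28.3 ± 1.08 CPM (log2 -1.59 ± 0.30, adjusted p = 1.01e-06). This was the largest decrease of the set, and it was called in all 20 other settings, between -2.24 and -0.91. CYC7 started at 2 groups of positions, and both had fewer ends relative to depth. From 151 to 200 bp upstream there were 21 and 11 against 16 and 12 counts, and from 51 to 100 bp 6 and 11 against 10 and 12. CYC1 had 56 and 53 against 172 and 144, a log2 difference of -0.14 ± 0.17 that did not pass (adjusted p = 0.49). The difference between the isoforms was not tested. The 250 bases before the start are shown for both promoters of this isoform pair, up to the main start of CYC1 (61 bp upstream, chrX:526024-526274, plus strand) and the upstream group of CYC7 (193 bp, chrV:80170-80420, minus strand). Capitals mark the motif TATAAA. They also mark the CCAAT motif. Matches on the other strand, which read as the reverse complement, are in capitals too, as is the dinucleotide of the start at the end.
CYC1: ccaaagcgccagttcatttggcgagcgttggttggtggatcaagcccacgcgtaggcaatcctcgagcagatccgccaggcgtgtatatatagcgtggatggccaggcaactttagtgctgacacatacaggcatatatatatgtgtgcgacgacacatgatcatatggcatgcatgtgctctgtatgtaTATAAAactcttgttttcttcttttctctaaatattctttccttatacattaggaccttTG
CYC7: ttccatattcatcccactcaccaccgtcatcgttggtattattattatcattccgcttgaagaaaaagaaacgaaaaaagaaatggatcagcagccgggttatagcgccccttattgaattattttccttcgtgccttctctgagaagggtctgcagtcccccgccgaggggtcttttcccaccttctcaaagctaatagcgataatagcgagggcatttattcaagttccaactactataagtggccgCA
Only the CYC1 window held a match, a TATAAA 60 bp before its start.

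Subunit V of cytochrome oxidase likewise has an aerobic gene, COX5A, and a low-oxygen gene, COX5B. COX5B had 26 and 19 counts in BY4741 against 41 and 40 in *set2*Δ, or 73.7 ± 5.42 against 41.95 ± 3.08 CPM (log2 -0.82 ± 0.29, adjusted p = 0.010). It was called in 17 of 20 other settings and lost with DESeq2 (adjusted p = 0.12), thinned libraries (0.15) and distinct positions (0.34). COX5A had 62 and 57 against 175 and 143, a log2 difference of -0.26 ± 0.17 (adjusted p = 0.18). The isoform pair was again not tested against each other. Their promoters, marked as above, run to the main start 34 bp before COX5A (chrXIV:531441-531691, plus strand) and 46 bp before COX5B (chrIX:154926-155176, plus strand).
COX5A: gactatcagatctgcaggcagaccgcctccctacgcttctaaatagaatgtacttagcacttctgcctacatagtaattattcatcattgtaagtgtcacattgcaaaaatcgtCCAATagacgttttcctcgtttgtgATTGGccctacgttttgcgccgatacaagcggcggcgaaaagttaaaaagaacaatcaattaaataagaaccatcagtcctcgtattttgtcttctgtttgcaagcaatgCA
COX5B: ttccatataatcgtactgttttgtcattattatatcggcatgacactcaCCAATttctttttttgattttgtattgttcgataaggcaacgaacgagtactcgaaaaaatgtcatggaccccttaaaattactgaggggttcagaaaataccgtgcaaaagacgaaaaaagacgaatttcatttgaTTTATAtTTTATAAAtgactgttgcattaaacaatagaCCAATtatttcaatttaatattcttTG
COX5A held CCAAT 136 bp before its start and the reverse form 111 bp before it, with no TATAAA. COX5B held CCAAT 201 and 26 bp before its start and 3 TATAAA forms, a reverse one at 64 bp and a reverse and a forward one that overlap at 57 and 55 bp.

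The other genes of complex IV gave 3 lower calls, COX7, COX8 and COX9, with log2 differences between -0.58 and -0.27. None of them was called lower with loess offsets, where COX9 turned to 0.17. COX12 and COX13, nuclear subunits VIb and VIa, did not pass (-0.12 and -0.04), although COX13 was called higher with loess offsets (0.32, adjusted p = 0.056).

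For 4 genes the fixed window missed starts or left out shared positions, so the longer window, chosen after the values were seen, bears on them. COX4 had 0 and 0 against 2 and 5 counts in the fixed window, too few for the test, but 77 and 60 counts in BY4741 against 313 and 258 in *set2*Δ in the longer window, a log2 difference of 0.37 ± 0.15 (adjusted p = 0.029). CYT1, the cytochrome c1 of complex III, started over a broad stretch from about 200 to 400 bp upstream. It had 7 and 14 against 100 and 68 counts in the fixed window (log2 1.32 ± 0.31, adjusted p = 6.73e-05) and 26 and 32 against 296 and 186 in the longer one (1.36 ± 0.20, adjusted p = 8.27e-08). Without BY4741 replicate 1 the first of these was 0.72 (adjusted p = 0.10). ATP1, the α subunit of F1, had its main start 296 bp upstream. Its call in the fixed window (4 and 4 against 30 and 27, log2 1.15 ± 0.53, adjusted p = 0.054) became -0.22 (adjusted p = 0.18) in the longer one, where it had 98 and 111 against 315 and 266 counts. It was also lost without any 1 of the 4 libraries (adjusted p between 0.11 and 0.24). COX6, subunit VI of cytochrome oxidase, has its main start 160 bp upstream in a stretch shared with the window of a neighbouring gene. Its fixed window kept 2 and 0 against 19 and 11 counts, a ratio of 4.70 with a 95% counting interval of 1.19 to 40.6 (fitted log2 2.17, adjusted p = 0.033). COX6 was called higher in 11 of the 19 other settings that tested it. With the shared positions it had 62 and 68 against 247 and 209 in the longer window and did not pass (log2 0.12, adjusted p = 0.53). The fixed-window COX6 call was also lost without BY4741 replicate 2 (adjusted p = 0.23) or *set2*Δ replicate 1 (0.23). Over the longer window, the set had 3 genes called higher (NDE1, CYT1 and COX4) and 22 lower, of 39 tested, where 32.2% and 30.0% of all genes were called.

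**Figure D4:**
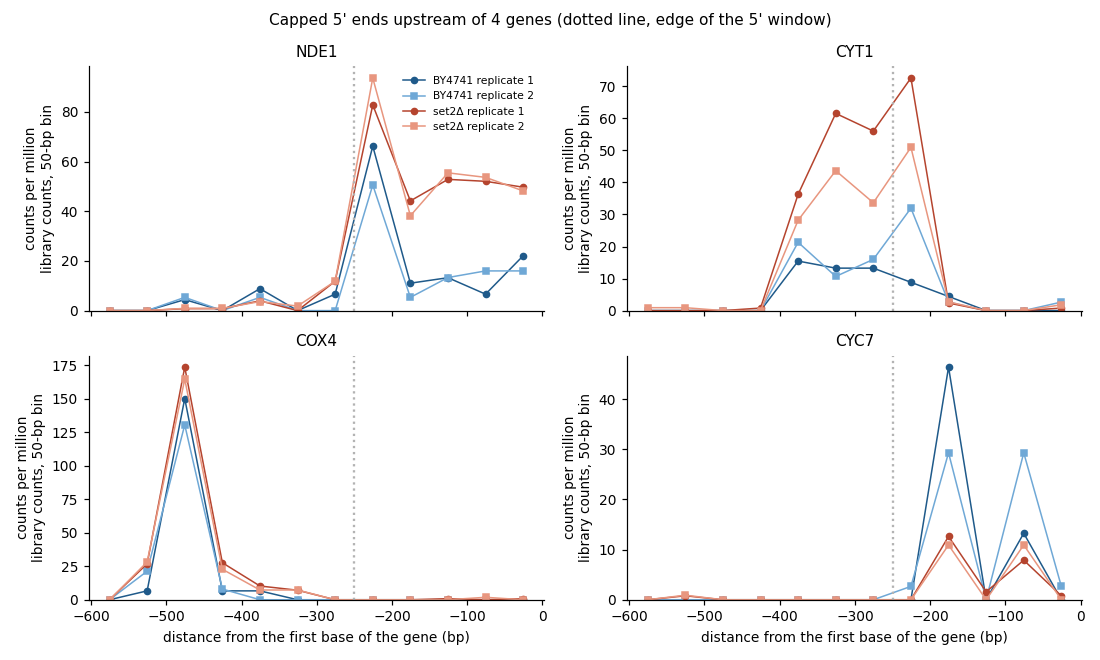
Capped 5′ ends in 50-bp bins upstream of NDE1, CYT1, COX4 and CYC7, as CPM (of all counts in the library) against distance from the first base of the gene, 1 line per library. In *set2*Δ, NDE1 rises in the bins from 1 to 250 bp upstream and CYT1 in those from 201 to 400 bp. COX4 starts about 476 bp upstream, outside the fixed window (dotted line). CYC7 is lower in *set2*Δ at both groups of starts.

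In complex III, CYT1 was the only higher call. QCR7, QCR8 and QCR10, small subunits of the complex, were called lower with log2 differences from -0.43 to -0.34, and none of these was called with loess offsets. COR1 and QCR2 (core subunits), QCR6, QCR9 and RIP1 (the Rieske iron-sulfur protein) did not pass, between -0.16 and 0.06. Of these, QCR2 (0.34) and QCR6 (0.69) were called higher with loess offsets.

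The calls of the ATP synthase genes depended on the scaling. With TMM, F1 had 3 of 6 genes lower and 1 higher and the stalk and membrane part 5 of 7 lower, where 30.2% of all genes were lower and, in the highest level class, 76.9%. With loess offsets F1 had 1 lower and 2 higher and the stalk and membrane part 0 lower and 1 higher. In F1 and its inhibitor, ATP15, ATP2 and ATP16 were called lower, ATP3 (γ subunit) and INH1, the inhibitor of ATP hydrolysis, did not pass (-0.19 and -0.05), and ATP1 is described above. ATP15 had 144 and 144 counts in BY4741 against 243 and 193 in *set2*Δ, or 479 ± 70.7 against 224 ± 16.1 CPM (log2 -1.08 ± 0.13, adjusted p = 3.62e-15), and was lower in all 20 other settings. In the stalk and membrane part, ATP18 had the largest decrease with TMM, from 731 ± 157 to 394 ± 10.9 CPM (log2 -0.88 ± 0.12, adjusted p = 9.42e-12), and lost its call only with loess offsets (-0.21, adjusted p = 0.13). ATP5, ATP7, ATP14 and ATP17 lay between -0.65 and -0.33 and also lost their calls with loess offsets, and ATP4 and ATP20 (-0.20 and 0.04) did not pass. With loess offsets ATP4, ATP16 and INH1 were called higher (0.43, 0.30 and 0.43), so their direction depended on the scaling. In bulk RNA, fewer RNAs per cell and fewer cells with the RNA cannot be told apart.

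Leader length could be followed in 35 genes with at least 20 counts within 250 bp upstream in each library. The mean leader was longer in both *set2*Δ libraries for 10 of them and shorter for 16, where 49.7% and 13.4% of 2934 genes were. The median difference was -1.72 bp in the set and 1.8 bp over all genes. CYC1 lengthened most, from 57.2 and 60.6 bp to 69.5 and 74.9 bp, and a position 166 bp upstream went from 1 and 1 counts to 8 and 7. COX9 went from 43.9 and 44.3 to 57.0 and 51.7 bp. NDE1, COX6 and INH1 shortened by 14.7, 14.5 and 13.0 bp. A mean leader weighs each position by its counts, and counts at the main starts together rose less than depth. At the main start of CYC1 they were 16 and 8 in BY4741 against 16 and 15 in *set2*Δ. These leader changes are descriptions of 2 libraries a strain, with no test.

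The 31 genes of at least 300 bp had between 93 and 411 internal counts in each library. As a share of internal and 5′ window counts this was 5.12% (95% Wilson interval 4.31 to 6.07) and 4.29% (3.52 to 5.23) for BY4741. For *set2*Δ it was 6.15% (5.60 to 6.76) and 5.17% (4.62 to 5.79). These intervals cover counting error only. The means, 4.71% ± 0.58 and 5.66% ± 0.69 (SD, n = 2), differed by 0.96 points, and the exact two-sided permutation p of 0.33 is the smallest this design allows. With the longer 5′ window the share was 4.56% and 3.78% for BY4741 against 5.23% and 4.43% for *set2*Δ. These overlap (exact two-sided permutation p = 0.67). Level and direction depended on the high positions. Without positions of 8 or more counts the share was 18.6% and 14.9% against 14.3% and 13.3%, a difference of -2.90 points, and with distinct positions 15.4% and 11.9% against 19.7% and 16.2%. In the other 5679 genes of at least 300 bp the share was 11.4% ± 0.85 in BY4741 and 20.2% ± 1.22 in *set2*Δ. The share of the set relative to that of the other genes was 0.43 and 0.40 in BY4741 against 0.29 and 0.27 in *set2*Δ, without overlap (exact two-sided permutation p = 0.33, the smallest possible). The set differs from the other genes in level and length, its median length being 546 bp against 1266 bp. In the highest level class, the 965 other genes went from 8.97% and 8.09% to 11.2% and 9.44%, and the 8 of the set from 2.67% and 1.71% to 3.40% and 2.47%. The part of level and length in the difference was not tested further.

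**Figure D5:**
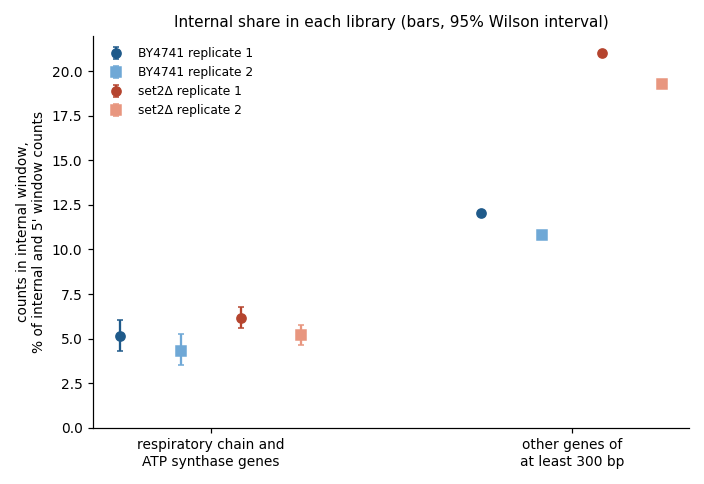
Internal window counts as a percentage of internal and 5′ window counts in each library, with 95% Wilson intervals, for the 31 genes of at least 300 bp (left) and the other 5679 genes of that length (right). The set lies at 5.12% and 4.29% for BY4741 against 6.15% and 5.17% for *set2*Δ, and the other genes at 12.0% and 10.8% against 21.02% and 19.3%. With these windows neither group of genes overlaps between strains. With the longer 5′ window the set does (4.56% and 3.78% for BY4741 against 5.23% and 4.43% for *set2*Δ).

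Single genes were tested inside where they had 10 counts, which left 25. Both *set2*Δ libraries lay above both BY4741 libraries for 5 of these and below for 7, where 39.4% and 28.8% of all genes did. The 5 above were ATP3, ATP4, ATP7, COX13 and QCR9. They passed the filter only through *set2*Δ, so this count is not independent of it. ATP4 was called higher, and SDH4, ATP1 and ATP2 were called lower, where 25.2% and 17.5% of all 4726 tested genes were higher and lower. Here the scaling mattered. With library totals in place of TMM, which moved the median of all genes from 0.16 to 0.83, 6 genes were called higher and 1 lower, and scaling to 5′ window counts gave the same split.

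ATP4, subunit b of the stator stalk, had 1 and 0 internal counts in BY4741 against 23 and 15 in *set2*Δ, while its 5′ window did not pass. It reached the 10 counts of the filter only through *set2*Δ, the strain in which it was higher, so its calls are not independent of the filter. The ratio was 8.36 with a 95% counting interval of 1.41 to 339 (fitted log2 2.95 ± 1.06, adjusted p = 0.018). These ends were spread along the gene, with 3 and 4 *set2*Δ counts from base 201 to base 378, 9 and 6 up to base 556 and 11 and 5 beyond it, and at most 2 at any base in any library. In a joint model the internal change exceeded that in the 5′ window (log2 difference 3.28 ± 1.03, adjusted p = 0.021). Such excesses were called for 8.07% of 4500 genes and, in the set, for ATP4 and SDH1. Both ATP4 calls were lost without BY4741 replicate 2 (internal log2 2.13, adjusted p = 0.16; joint model 2.39, 0.21), and the internal one without *set2*Δ replicate 1 (2.62, 0.12). SDH1 had 7 and 1 against 28 and 31 internal counts (log2 0.70 ± 0.54, adjusted p = 0.33) and an excess over its 5′ window of 1.39 ± 0.53 (adjusted p = 0.074). SDH1 too reached the 10 counts inside only through *set2*Δ, so its excess is not independent of the filter. The excess of SDH1 did not pass without BY4741 replicate 2 (0.75, adjusted p = 0.47) or without *set2*Δ replicate 2 (0.97, 0.40). COX13 (0 and 0 against 5 and 5) and QCR9 (0 and 0 against 4 and 8) had internal ends in *set2*Δ alone, too few for a fold against a floor of 3 counts.

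Internal ends of both large F1 subunit genes were called lower with TMM. ATP2 had 19 and 20 internal counts in BY4741 against 58 and 39 in *set2*Δ, or 467 ± 122 against 246 ± 22.7 CPM of internal counts (log2 -0.87 ± 0.31, adjusted p = 0.018). ATP1 had 15 and 20 against 37 and 32 (log2 -1.21 ± 0.34, adjusted p = 0.0019), 5 and 12 against 20 and 21 of them between bases 680 and 1158, where base 760 alone had 0, 5, 10 and 10. Both calls were lost without BY4741 replicate 2 (-0.72, adjusted p = 0.15, and -0.86, 0.13) and with library totals (-0.21 and -0.54). The joint model called ATP1 lower inside (-2.31 ± 0.62, adjusted p = 0.0047, where 6.4% of genes were), but its 5′ window misses the main starts. SDH4 had 4 and 4 against 3 and 1 internal counts (log2 -3.06 ± 0.97, adjusted p = 0.0062), the same direction as in its 5′ window. With any of 3 libraries left out (*set2*Δ replicate 2 being the exception) it fell under the 10 counts needed for the test.

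Antisense ends were close to absent. Summed over the 31 genes there were 8 and 4 in BY4741 against 50 and 51 in *set2*Δ, and 18 of the genes had none in any library. CYT1 alone had the 10 counts needed for the test, with 4 and 2 against 35 and 42 (log2 1.26, adjusted p = 0.13, beside a median of 1.23 for all 1478 genes tested), and did not pass, where 17.9% of the genes tested were called higher and 4.4% lower. CYT1 reached those 10 counts only through *set2*Δ. Its antisense ends clustered near its 3′ end, from base 848 to base 906 of 930. The other 30 genes had 4 and 2 against 15 and 9 in all.

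The promoters shared a sequence feature. In the 250 bases before the main start, CCAAT occurred on either strand in 36 of the 40 genes (90%), beside 1838 of 5249 genes (35.0%) in all. NDE2, CYT1, CYC1 and CYC7 were the exceptions. TATAAA occurred in 16 of the 40 (40%) and in 41.7% of all genes. NDE1 held CCAAT in the reverse form 58 bp before its start, SDH4 131 bp, SDH3 in the reverse form 106 bp and ATP15 112 bp, so the motif was present before genes called in either direction. A match is a stretch of letters, not a measured binding site.

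Genes that build or regulate the complexes were counted as lists. Of 43 assembly factors and minor subunits, 42 were tested in the 5′ window, with 20 lower, 9 higher and a median of -0.16, where 30.2% of all genes were lower, 32.8% higher and the median was 0.11. STF1, a paralog of INH1 that acts with it, had 161 and 138 counts in BY4741 against 186 and 169 in *set2*Δ (log2 -1.43 ± 0.13, adjusted p = 2.7e-25), while INH1 itself had 117 and 105 against 376 and 309. AEP3, needed for the mitochondrial mRNA of ATP synthase subunits, had 7 and 4 against 57 and 46 (log2 1.54, adjusted p = 6.4e-04). Inside the genes, 28 of the list were tested, with 5 higher and 5 lower, where 25.2% and 17.5% of all genes were. PET309, an activator of COX1 translation, had 1 and 0 against 35 and 37 internal counts, a ratio of 15.8 with a 95% counting interval of 2.75 to 634. It passed the filter only through *set2*Δ. Of 20 regulators 16 were tested in the 5′ window, with 6 higher and 2 lower, beside 32.8% and 30.2% of all genes. The subunit gene HAP3 of the CCAAT-binding activator was lower (80 and 77 against 172 and 165, log2 -0.57, adjusted p = 5.8e-04). HAP4, its activating subunit, named after its values were seen, starts outside the fixed window and had 7 and 7 against 66 and 61 in the longer one (log2 1.48 ± 0.37, adjusted p = 5.4e-04).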

How the data were processed

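The authors aligned reads to R64 (S288c; Novoalign, base calls with CASAVA 1.8.2, per the labels and methods) and deposited, per strand and library, whole-number counts of 5′ ends at each base without normalization. Whether reads sharing the 8 nt barcode were collapsed is not given in the sources used here. Minus-strand positions were moved by 42 bp. Positions in windows of 2 same-strand genes were left out, and antisense counts exclude other genes' 5′ windows. A minimum of 10 counts summed over the 4 libraries was set, and the genes above it entered edgeR 4.0.16 (quasi-likelihood test, TMM, Benjamini-Hochberg adjusted p below 0.1, the threshold of the methods, which used DESeq2) in R 4.3.3. The joint model had library as a factor. DESeq2 1.42.0, limma 3.58.1 (loess offsets) and the alternatives of the closing section were also run. Fits were tested on simulated data. Of changes of log2 1, 82.8% were recovered in the 5′ window, 23.2% in the internal and 12.7% in the antisense window. The joint model recovered 8.25%. In that order, 7.81%, 7.29%, 14.5% and 10.0% of calls were false. Simulated counts were drawn per gene, so the pattern at single positions is not covered. Shares used scipy 1.17.1. The depth ran from 375442 to 1267578 counts.

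The members, lists and alternatives were chosen with earlier results of these data known. Named with counts are members called in a test (up to 6 per direction and test, with at least 10 counts in the higher strain), the isoform pairs, the highest member of each complex, SET2 and up to 2 called genes per other list, window and direction. Others are named where a result turns on them. SDH4, with 8 internal counts in BY4741, is one.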

Additional observations from a re-analysis of the deposited data

How the results depend on the processing

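Members called in the 5′ window (4 higher, 20 lower) became 2 and 13 with the DESeq2 test, 8 and 7 with loess offsets and 2 higher with a narrower window. Lower calls became 12 without positions of 8 or more counts and 5 with distinct positions. Leaving out 1 library gave 2 to 3 higher and 15 to 20 lower calls. In the internal window (1 higher, 3 lower), DESeq2 gave 0 and 1, library totals 6 and 1, scaling to 5′ window counts 6 and 1, and 100 bp left out at the start 3 and 5. With filterByExpr 0 were higher, and leaving out 1 library gave 0 to 2 higher and 3 to 4 lower. DESeq2 gave no adjusted p for 18 of the 25 genes tested there, ATP4 and SDH4 included. Antisense calls by edgeR were 0 (CYT1, the gene tested, had an unadjusted p of 0.035; DESeq2 also gave 0), and 1 with DESeq2 size factors, library totals, 5′ window totals, no filter or filterByExpr. The 2 higher calls of the joint model became 0 without positions of 8 or more counts and 0 to 2 with 1 library left out. The internal share difference of 0.96 points was -2.90 without such positions, 4.32 with distinct positions, -0.33 as a mean of the genes' own shares, and 0.47 to 1.45 with 1 library left out. The median leader was 60.5 bp with minus-strand positions as listed. In the 5′ window 21 of the 38 genes changed sign in at least 1 setting, 9 of them called in the TMM fit (QCR7, QCR8, COX8, COX9, ATP1, ATP2, ATP14, ATP16 and ATP17). Values of the other sign included those of ATP1 (-0.22 in the longer window), CYC1 (0.020 with library totals), COX9 (0.17 with loess), ATP16 (0.30 with loess, 0.56 without positions of 8 or more counts) and QCR6 (-0.0019 with DESeq2, -0.039 without BY4741 replicate 1 and -0.048 without *set2*Δ replicate 1, up to 0.15 without *set2*Δ replicate 2). The cause was not tested. The replicate numbers did not pair the samples (same-number correlation -0.068 over 4308 genes). With the replicate block 19 were lower in the 5′ window, COX8 being the call that changed, and no internal or antisense call changed. With 2 libraries a strain and few internal and antisense counts, differences in those windows were often not detectable at this depth. The longer window and 2 settings that left out positions near other genes were added after the data were seen.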

Other observations

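Genes that feed electrons into the chain or make its quinone were lower more often than higher in the 5′ window: of 13 tested, 7 were lower and 1 higher (edgeR, with 30.2% and 32.8% of all genes). COQ4, a scaffold for quinone synthesis, had 77 and 72 counts in BY4741 against 126 and 103 in *set2*Δ (log2 -1.05). COQ8, a kinase-like protein of the same pathway, had 47 and 35 against 173 and 183 (log2 0.45). Inside the genes, GUT2, the mitochondrial glycerol-3-phosphate dehydrogenase, had 1 and 1 counts against 169 and 143, a ratio of 34.3 with a 95% counting interval of 9.42 to 285, while its 5′ window did not pass (15 and 11 against 54 and 36, log2 0.12). COQ1, which makes the quinone tail, had 5 and 1 internal counts against 57 and 56 (log2 2.04). Inside, GUT2 and COQ1 passed the filter of 10 counts only through *set2*Δ.

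Of 13 genes regulated by heme or oxygen, 6 were lower and 2 higher in the 5′ window, where 30.2% and 32.8% of all genes were. ANB1, the low-oxygen form of a translation factor, had 65 and 61 against 85 and 58 (log2 -1.49). HMG1, an enzyme of sterol synthesis, had 11 and 9 against 66 and 72 (log2 1.11). Its paralog HMG2 did not pass in the 5′ window, with 7 and 10 against 30 and 28, but had 8 and 4 against 121 and 105 internal counts (log2 2.05). Among the regulators, RTG2, a sensor of mitochondrial state, had 2 and 3 against 128 and 130 internal counts (log2 3.49). RTG2 also passed the filter there only through *set2*Δ.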
